A study of Mus musculus with 122 samples.

Results

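The genes described here are 7 of the 52459 in the deposited RNA-seq table, namely H19, Igf2, Igf2os, Ins2, Th, Mrpl23 and Tnnt3, taken by name because they sit in or beside the Igf2-H19 imprinted locus on mouse chromosome 7. They are followed over all 38 RNA-seq libraries, together with every ChIP-seq peak of the FLAG-tagged transgenes and of the cohesin subunit RAD21 in the locus, and with the Hi-C domains that hold the gene starts. The study used E14Tg2a mouse embryonic stem cells in which both alleles of endogenous Ctcf carry an auxin-inducible degron and eGFP, and it asked how the DNA-binding protein CTCF, its germline paralog CTCFL and chimeras of the pair bind chromatin, fold it and change transcription. Each line carried 1 doxycycline-inducible transgene with FLAG and mRuby2 tags at the Tigre locus. The study's methods give feeder-free culture for all clones, in medium with fetal bovine serum, LIF and the inhibitors of 2i.

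The transgenes were CTCF, CTCFL and chimeras named by the origin of the N terminus, the zinc fingers and the C terminus, with C for CTCF and L for CTCFL. LCL thus has the CTCF zinc fingers between the CTCFL termini, CLC has the CTCFL fingers between the CTCF termini, and CLL and LLC, which entered the ChIP-seq but not the RNA-seq analysed here, have the CTCFL fingers with 1 terminus of each protein. Every line, the untreated controls included, holds the degron alleles and the Tir1 ligase needed for auxin to act. No cells without them were given IAA, so effects of IAA itself and of CTCF loss cannot be told apart. Cells were left untreated (U), given 500 uM of the auxin analog IAA to degrade endogenous CTCF (I), given 1 ug/ml doxycycline to induce the transgene (D), or given both (ID). The labels give 24 h for most of these samples and 48 h for the CLL and LLC ChIP samples and for the mock- and RNase-treated ones, while the study's methods give 2 days for expression and ChIP and 4 days for Hi-C of ID cells. The RNA-seq groups held 2 libraries for CTCF U, 3 each for CTCF I, D and ID, 3 each for CTCFL U, I and D, 2 for CTCFL ID, and 2 for each of the 8 groups of LCL and CLC. The lines are picked clones of 1 isogenic parental line, so an effect of a transgene and a difference between clones cannot be told apart, and maternal and paternal alleles could not be separated.

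H19 and Igf2 are the textbook pair of oppositely imprinted genes. H19, a long non-coding RNA, is transcribed from the maternal chromosome and Igf2, a fetal growth factor, from the paternal one. Between them lies the imprinting control region (ICR), where CTCF binds the unmethylated maternal copy and insulates Igf2 from enhancers on the far side of H19, while DNA methylation of the paternal copy keeps CTCF away.

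On the GRCm38 build the 7 genes lie within a stretch of chromosome 7 in the order Tnnt3 (142498836 to 142516009, plus strand), Mrpl23 (142532686 to 142540747, plus), H19 (142575529 to 142578143, minus), Igf2 (142650766 to 142666816, minus), Igf2os (142659693 to 142670356, plus), Ins2 (142678656 to 142743381, minus) and Th (142892752 to 142931128, minus). Igf2os is antisense to Igf2 and overlaps it, and the annotation holds a further overlapping gene, Gm49394. The libraries were made with a strand-marking method, but the strand setting of the counting is not given in the sources used here, so reads of Igf2 and Igf2os cannot be told apart with certainty. Tnnt3 encodes troponin T of fast skeletal muscle, Mrpl23 a protein of the large mitochondrial ribosomal subunit, Ins2 insulin, and Th tyrosine hydroxylase, the rate-limiting enzyme of catecholamine synthesis. ChIP-seq peaks were read over this stretch with a margin of 50 kb on each side.

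RNA levels are given as normalized counts, which are the authors' read counts per gene divided by a size factor for each library. In 36 of the 38 libraries the underlying whole reads could be recovered, and they ranged from 6847072 to 49716771 reads per library, with the lowest in CTCFL D replicate 3. A count of 3 reads corresponded to 1.75 to 11.2 normalized counts in these libraries. In the other 2, CTCFL I replicate 2 and CTCFL ID replicate 2, reads were not recovered. Ctcf RNA was not called changed in any line, which leaves the protein loss unchecked here, since IAA acts on the protein. In the CTCF line Ctcf was at 4701 ± 15.1 (SD, n = 2) before doxycycline and at 3748 ± 172 (SD, n = 3) after it, so its count did not show induction of that transgene, and whether transgene reads were counted was not tested. Ctcfl rose with doxycycline where the transgene holds CTCFL sequence, from means of 208 to 8244 in CTCFL, 31.8 to 400 in LCL and 42.03 to 1810 in CLC. Differences between U, I, D and ID were tested within each line with limma on log2(normalized count + 1), and a gene was called changed when its Benjamini-Hochberg adjusted p over all genes tested was under 0.01 and its change was over 2-fold. Fold changes are on that scale, which understates changes of low genes. The U and the I libraries of a line serve several of its comparisons, so these share samples.

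With IAA, Igf2 rose in the CTCF line and Mrpl23 fell in all 4 lines. Igf2os and Tnnt3 rose alongside Igf2 in the CTCF line, where H19 was lower in each I library than in each U library but missed the threshold. Of the 5 members tested in this line, 3 were called higher and 1 lower with IAA, where 10.9% of all genes tested were called. In CTCFL, LCL and CLC only Mrpl23 was called with IAA among the 6, 3 and 3 members tested, against 9.58%, 9.58% and 12.8% of all genes.

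H19, the maternally expressed RNA, stood at 83.0 and 75.1 normalized counts in CTCF U and at 42.6, 34.1 and 65.4 in CTCF I. The groups did not overlap, and the log2 fold change was −0.78 with a standard error (SE) of 0.27 and an adjusted p of 0.0335. Without CTCF I replicate 3, the highest of the I libraries, H19 was called lower with a log2 fold change of −1.03 and an adjusted p of 0.00734. In the CTCFL line H19 was at 16.2, 12.9 and 19.7 in U and at 7.46, 9.98 and 9.96 in I, again without overlap. In LCL it was listed at 0 and 3.09 in U, and it was at 0 in both I libraries and in all 8 CLC libraries, so no change of H19 was detectable in these lines at this depth.

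Igf2 rose from 2438 and 2591 normalized counts in CTCF U to 5635, 5019 and 5265 in CTCF I. Every I library lay above every U library, and the log2 fold change was 1.08 (SE 0.07, adjusted p = 1.09e-07), a 2.11-fold rise. The other lines gave no call. In CTCFL, Igf2 was at 1307, 1094 and 1195 in U and at 1287, 1406 and 1234 in I, which overlap, with a log2 fold change of 0.13 and an adjusted p of 0.243. In LCL its values went from 181 and 171 in U to 108 and 90.6 in I, lower without overlap by a log2 fold change of −0.83 (SE 0.17, adjusted p = 0.000684) that stayed under 2-fold. In CLC they went from 219 and 174 to 403 and 319, with a log2 fold change of 0.87 (SE 0.19, adjusted p = 0.00611), also under 2-fold. Without CLC I replicate 2 this last value was 1.04 and was called.

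Tested directly, the IAA response of Igf2 in LCL differed from that in the CTCF line by −1.90 on the log2 scale (adjusted p = 6.64e-09), in a contrast where 1.83% of genes were called. For CTCFL the difference was −0.95 with an adjusted p of 0.000446, under the 2-fold limit, where 0.370% of genes were called. For CLC it was −0.21 with an adjusted p of 0.495. For CLC 2.93% of genes were called.

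Igf2os, the antisense transcript, followed Igf2 in the CTCF line. It was at 53.2 and 79.5 in U and at 172, 159 and 139 in I, a log2 fold change of 1.25 (SE 0.25, adjusted p = 0.00109). Without CTCF U replicate 1 this was 0.97 and was not called. In CTCFL the groups overlapped, with 51.2, 70.2 and 44.1 in U and 49.4, 43.9 and 52.5 in I. In LCL U and I it did not exceed 1.75, and in CLC it was at 15.2 and 7.12 in U and at 22.4 and 21.3 in I.

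Mrpl23 showed the response that the 4 lines shared. In the CTCF line it fell from 228 and 159 normalized counts in U to 27.1, 43.2 and 33.5 in I, a log2 fold change of −2.45 (SE 0.22, adjusted p = 1.43e-06). In CTCFL it fell from 166, 169 and 186 to 37.3, 36.9 and 67.0, a log2 fold change of −1.91 (adjusted p = 7.07e-07). The I libraries lay below the U libraries without overlap in every line. In LCL it fell from 113 and 102 to 9.90 and 4.85, a log2 fold change of −3.76 (adjusted p = 1.47e-08). In CLC it fell from 104 and 90.2 to 12.52 and 11.52, a log2 fold change of −2.91 (adjusted p = 0.000201). No difference in this response between a line and the CTCF line was called, although that for LCL was −1.31 with an adjusted p of 0.0320.

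Mrpl23-ps1, by its name a pseudogene of Mrpl23, may share reads with that gene, which was not tested, so the levels of both are uncertain. Its mean also fell with IAA, from 22.02 to 2.62 in CTCF (log2 fold change −2.54, adjusted p = 0.000404) and from 19.8 to 2.16 in CTCFL (−3.04, adjusted p = 0.00302). In LCL and CLC it was too low to be tested, with means of 11.8 and 13.7 in U and of 2.04 and 0.895 in I.

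Tnnt3 was a low transcript in these stem cells. In the CTCF line it stood at 20.2 and 13.3 in U and at 52.3, 62.5 and 46.1 in I, a log2 fold change of 1.64 (SE 0.35, adjusted p = 0.00172). Without CTCF U replicate 2 the call was lost, at 1.35 and an adjusted p of 0.0279. In CTCFL it was at 16.2, 0 and 2.32 in U and at 34.5, 17.96 and 21.7 in I, without overlap, with a log2 fold change of 2.69 and an adjusted p of 0.0188. It was called there at 3.77 once CTCFL U replicate 1, the library at 16.2, was left out. In LCL and CLC it did not exceed 10.5.

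Th was at most 26.6 in any library and was not called in any comparison, and in CTCFL D its 3 libraries stood at 26.6, 0 and 0. Ins2 was listed at 0 in all 38 libraries. Neither gene thus gave a response that could be compared between conditions.

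**Figure D1:**
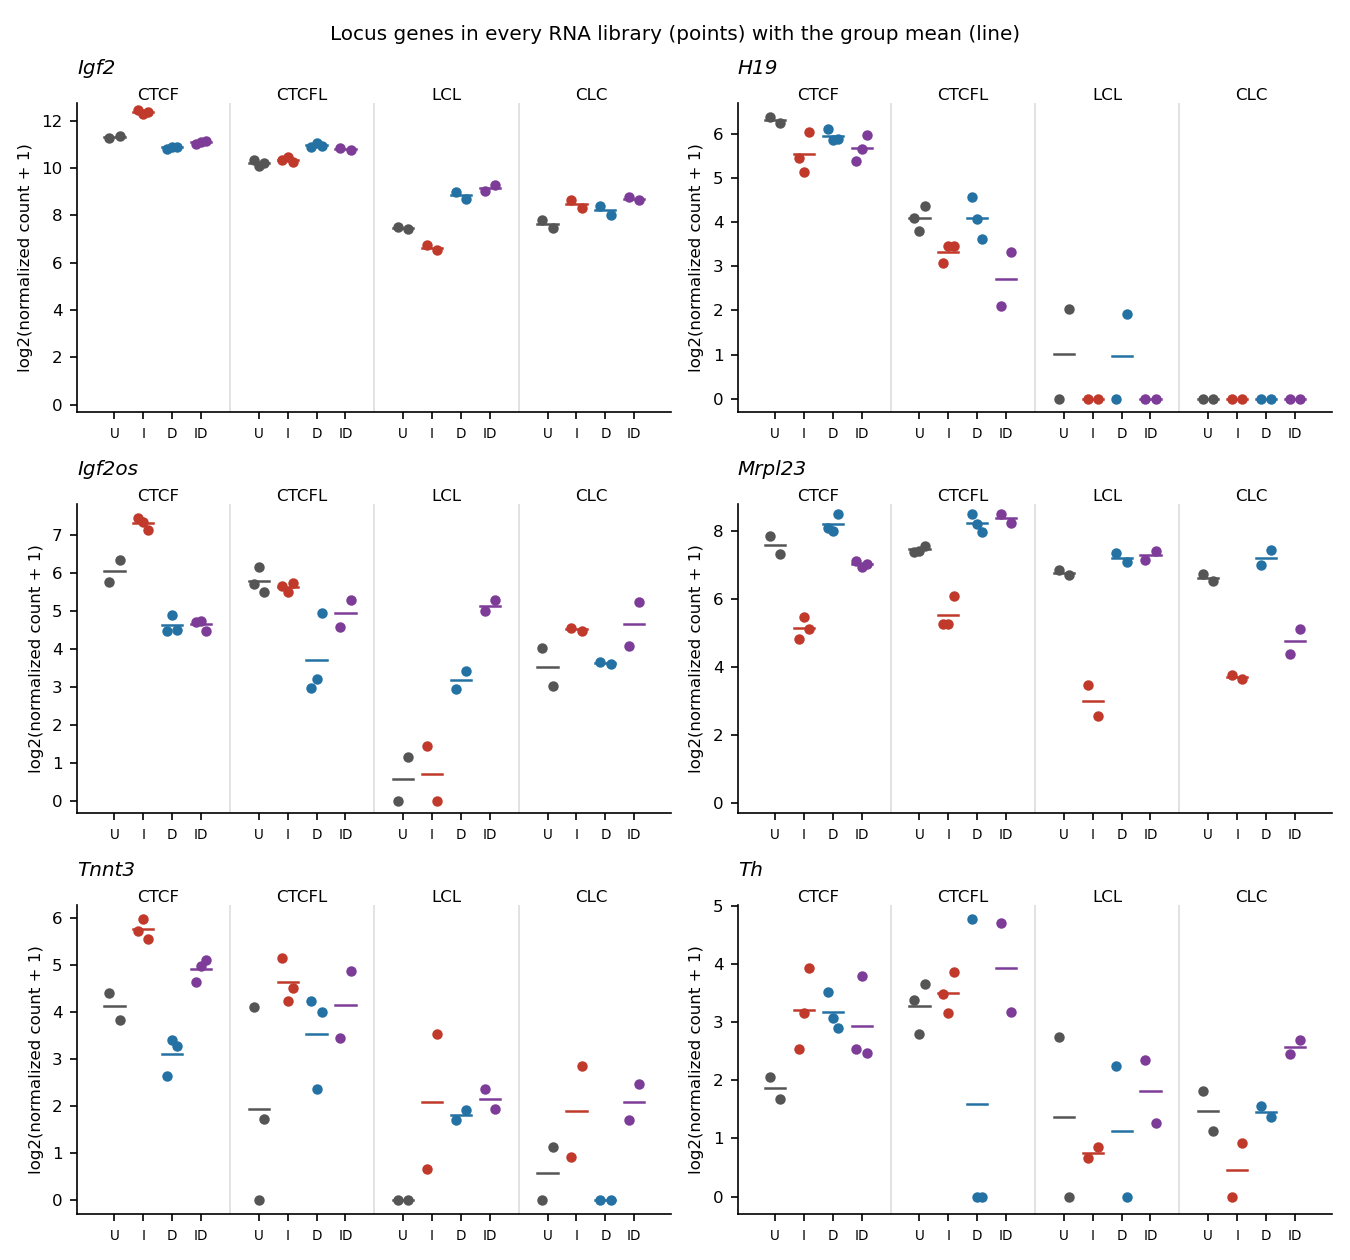
Level of 6 members as log2(normalized count + 1) in every RNA-seq library (points) by line and condition, with a line at each group mean. Ins2, at 0 in all libraries, is not drawn. Igf2 in the CTCF line is highest in its 3 I libraries, and Mrpl23 is lowest in the I libraries of all 4 lines.

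Igf2 lay on different sides of its untreated level when a transgene was induced over endogenous CTCF, depending on the line. With the CTCF transgene Igf2 was lower than in U, with the CTCFL and LCL transgenes it was higher, and the change was over 2-fold in LCL. Of the members tested in U against D, 1 of 5 was called in CTCF, 1 of 6 in CTCFL, 1 of 3 in LCL and 0 of 3 in CLC, against 0.455%, 5.90%, 1.91% and 0.600% of all genes. In CLC, 1 of the 3 members, Igf2, had an unadjusted p under 0.05, and neither edgeR nor DESeq2 on the recovered reads called any.

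In the CTCF line Igf2 was at 1809, 1902 and 1882 in D, below both U libraries, with a log2 fold change of −0.43 (SE 0.07, adjusted p = 0.00348). In CTCFL D it was at 1867, 2117 and 1974, above all U libraries, with a log2 fold change of 0.73 (adjusted p = 9.80e-07). In LCL D it was at 509 and 416, a log2 fold change of 1.38 (adjusted p = 1.41e-05). CLC D stood at 338 and 261, above both U libraries, with a log2 fold change of 0.60 and an adjusted p of 0.0754. Each of the 3 lines differed from the CTCF line in this response of Igf2, by 1.16 for CTCFL, 1.81 for LCL and 1.03 for CLC (adjusted p = 4.65e-06, 5.02e-08 and 0.000383), where 3.50%, 1.03% and 0.837% of genes were called.

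Igf2os fell with doxycycline in the CTCF line, to 21.1, 28.7 and 21.7 (log2 fold change −1.43, adjusted p = 0.00379), and in the CTCFL line, to 6.91, 8.27 and 29.96 (−2.07, adjusted p = 0.00216). In CTCFL it thus moved against Igf2. Both calls were lost when single libraries were left out, with adjusted p of up to 0.0712 in CTCF, without U replicate 2, and of up to 0.0165 in CTCFL, also without U replicate 2. The other libraries whose omission ended the call were D replicates 1 and 3 in CTCF, with adjusted p of 0.0136 and 0.0145, and D replicates 1 and 2 in CTCFL, with 0.0126 and 0.0111. H19 in D stood at 68.4, 57.4 and 58.7 in CTCF and at 22.7, 15.96 and 11.2 in CTCFL, and was not called in either. Mrpl23 was at 267, 254 and 357 in CTCF D and at 357, 291 and 247 in CTCFL D, above every U library of its line. It was not called in either, with log2 fold changes of 0.60 and 0.77 and adjusted p of 0.0755 and 0.0119.

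When CTCF was degraded in the presence of a transgene, Mrpl23 was high again with CTCF, CTCFL and LCL, whereas in CLC it stayed well below the untreated level. Igf2 came back below its untreated level with the CTCF transgene and stood above it with LCL and CLC. Against U, 1 of 5 members was called in CTCF, 0 of 6 in CTCFL, 2 of 3 in LCL and 2 of 3 in CLC, where 14.9%, 19.6%, 12.5% and 6.47% of all genes were called. Against I, the counts were 3 of 5, 1 of 6, 3 of 3 and 0 of 3, where 5.06%, 7.83%, 8.49% and 1.95% of all genes were called.

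Mrpl23 in ID stood at 137, 122 and 129 in CTCF, 359 and 301 in CTCFL, and 140 and 169 in LCL. All of these lay above every I library of the same line, with log2 fold changes from I of 1.90 in CTCF (adjusted p = 9.40e-06), 2.83 in CTCFL (1.93e-08) and 4.28 in LCL (3.02e-09). The CTCF ID libraries lay below both U libraries of that line, by less than 2-fold. In CLC ID Mrpl23 was at 19.6 and 33.7, also above both I libraries but with a log2 fold change of 1.04 and an adjusted p of 0.0576. Compared with U the CLC value was −1.87 (adjusted p = 0.00313), and this call was lost without CLC ID replicate 1 (adjusted p = 0.0216) and without U replicate 1 or 2 (0.0377 and 0.0272). The rise from I in LCL exceeded that in CTCF by 2.38 (adjusted p = 1.42e-05, with 10.5% of genes called), whereas the difference for CLC was −0.86 with an adjusted p of 0.0881. The mean of Mrpl23-ps1 was 14.5 in CTCF ID, 26.3 in CTCFL ID, 12.7 in LCL ID and 1.37 in CLC ID.

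Igf2 in ID stood at 2064, 2181 and 2273 in CTCF, a log2 fold change of −1.29 from I (SE 0.07, adjusted p = 5.00e-08) and of −0.21 from U. In CTCFL ID it was at 1828 and 1714, above U by a log2 fold change of 0.57 (adjusted p = 3.23e-05) and above I by 0.44 (adjusted p = 0.000875), both under 2-fold. LCL ID showed the widest change of the gene within a line, at 517 and 620, with log2 fold changes of 2.51 from I (adjusted p = 1.06e-09) and 1.68 from U (1.26e-07). CLC ID stood at 437 and 396, a log2 fold change of 1.09 from U (adjusted p = 0.00333). It overlapped CLC I, with a log2 fold change of 0.22 and an adjusted p of 0.475. The CLC call against U was lost when any 1 of its 4 libraries was left out, with adjusted p of 0.0144 to 0.0394. The change from I to ID differed from that in the CTCF line by 1.72 in CTCFL (adjusted p = 4.45e-09, 3.08% of genes called), 3.79 in LCL (4.87e-17, 10.5%) and 1.50 in CLC (2.80e-08, 10.9%).

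Igf2os in CTCF ID was at 25.3, 25.8 and 21.2, below both U and I, with log2 fold changes of −1.401 and −2.65 (adjusted p = 0.000337 and 1.54e-06). The call against U was lost without CTCF U replicate 2 (adjusted p = 0.0103). In LCL ID it rose to 30.6 and 38.1 from at most 1.75 in U and I, with fitted log2 fold changes of 4.56 and 4.41 that depend on the added count of 1. The call against I was lost without LCL I replicate 2 (adjusted p = 0.0124). In the CTCFL line no member was called between U and ID by limma, although Igf2, Mrpl23 and Tnnt3 had an unadjusted p under 0.05. On the recovered reads, which left CTCFL ID replicate 1 alone in its group, edgeR and DESeq2 gave Mrpl23 log2 fold changes of 1.00 each there. In CLC between I and ID, Mrpl23 had an unadjusted p of 0.0107, and neither count method called a member. H19 stood at 40.99, 49.3 and 62.1 in CTCF ID and at 3.28 and 9.05 in CTCFL ID, and it was not called against U or I in either line.

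The untreated lines themselves differed at this locus, a comparison made after the values were seen. Igf2 ran from 2438 to 2591 in CTCF U and from 1094 to 1307 in CTCFL U, but only from 171 to 219 in LCL U and CLC U. CTCFL U was below CTCF U by a log2 difference of −1.07 (adjusted p = 5.78e-08), where 3.19% of genes were called. LCL U and CLC U were below it by −3.83 and −3.68 (adjusted p = 7.87e-20 and 2.25e-20), where 22.5% and 25.1% of genes were called, and they were not called different from each other (0.15, adjusted p = 0.438), in a comparison where 3.82% of genes were called.

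H19 followed the same order, at 75.1 and 83.0 in CTCF U, 12.9 to 19.7 in CTCFL U, and at most 3.09 in LCL U and CLC U. The difference between CTCFL U and CTCF U was −2.23 (adjusted p = 0.00548). Igf2os was lower in LCL U and CLC U than in CTCF U by −5.47 and −2.53 (adjusted p = 4.48e-10 and 0.000168), the first a fitted value against levels of 0 and 1.23. Mrpl23, by contrast, was not called in any of the 6 comparisons of untreated lines, and its widest difference was −0.97 for CLC U against CTCF U (adjusted p = 0.00646), under 2-fold.

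The split of LCL and CLC from CTCF and CTCFL went together with markers of primitive endoderm, an extraembryonic cell type that differs from the stem cells around it. The summed level of its 5 markers ran from 2991 to 5005 in CTCF and CTCFL libraries and from 388 to 958 in LCL and CLC libraries, and that of 4 fibroblast or feeder markers from 820 to 2167 and from 225 to 713. The 7 stem cell markers were high throughout, at 60214 to 140440 and 154154 to 227083. Markers of mesoderm, neural cells and trophoblast overlapped or lay closer, with sums of 38.3 to 167, 1671 to 4254 and 150 to 416 in the first pair of lines and of 10.3 to 40.9, 1739 to 3123 and 120 to 336 in the second. The column names of the LCL and CLC libraries carry the mark 2i and those of CTCF and CTCFL do not, so line, clone and any such difference cannot be told apart. The part of these markers in the Igf2 levels was not tested, and in bulk RNA fewer cells of a type and less RNA per cell cannot be told apart. Between CTCF U and CTCFL U the endoderm sum ran the other way, at 4352 to 4414 and 4709 to 5005, while Igf2 and H19 were lower in CTCFL U.

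Marker sums also moved with IAA in the CTCF line, where Igf2 rose. From U to I the stem cell sum went from 138438 to 140440 down to 101480 to 101971, and the endoderm sum from 4352 to 4414 down to 3697 to 4147. The mesoderm sum was higher, at 38.3 to 65.2 in U and 90.9 to 105 in I, as was the fibroblast sum, at 1034 to 1074 and 1214 to 1406. The neural sums of 3066 to 3400 and 3397 to 4127 overlapped, as did the trophoblast sums of 251 to 257 and 242 to 281. Their part in the Igf2 result was not tested.

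Ranked over the 16 groups, Igf2 was highest in CTCF I at 5306 ± 310 (SD, n = 3) and lowest in LCL I at 99.2 ± 12.1 (SD, n = 2). CTCF I and CTCF U stood apart from the groups next to them, whereas CTCF ID, CTCFL D, CTCF D and CTCFL ID formed a run of overlapping neighbours between 2173 and 1771. Mrpl23 ranged from 330 ± 41.5 (SD, n = 2) in CTCFL ID to 7.38 ± 3.57 (SD, n = 2) in LCL I. Its 5 lowest groups were the 4 I groups and CLC ID. H19 was highest in CTCF U at 79.0 ± 5.54 (SD, n = 2), and its 4 CTCF groups all stood above its 4 CTCFL groups.

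After the line mean was taken out, the 5 genes whose log2 levels ran most like Igf2 over the 38 libraries were Peg10, a paternally expressed imprinted gene (Pearson's r = 0.85), Cebpa (0.79), Fbxw9 (0.77), Tcf19 (0.69) and Igf2os (0.68). For H19 they were Mansc1 (0.73), Mir294 (0.68), Slc4a4 (0.68), Abhd10 (0.67) and Sntg2 (0.65). The same measure was −0.08 between H19 and Igf2. These are descriptions over libraries that share lines and treatments.

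Some of the genes that neighbour the members, imprinted and muscle genes among them, also changed with IAA. Of 25 such genes in the table, 20 were tested in the CTCF line, where 4 rose and 1, Cars, fell (−1.05), beside 10.9% of all genes called. The median log2 fold change was 0.59 beside 0.03 over all genes. Those that rose were Cdkn1c, a maternally expressed inhibitor of cyclin-dependent kinases (mean 1054 to 2966, log2 fold change 1.49), Lsp1 (1.70), Tnni2, the fast muscle troponin I (1.879), and Tnfrsf23 (1.30). In CTCFL 2 of 20 rose, Tnni2 (1.96) and the phosphatase gene Dusp8 (1.60), beside 9.58% of all genes called. In LCL and CLC 3 of 16 and 3 of 18 rose and 0 fell, beside 9.58% and 12.8%. These were Dusp8 (2.97 in LCL and 3.87 in CLC), Cdkn1c (1.56 and 1.70) and Osbpl5 (2.08 and 2.47). With so few genes listed, these counts are not read as particular to the neighbours.

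With doxycycline alone, 0 of the 20 tested neighbours were called in the CTCF line. In CTCFL D, Lsp1 (1.12), Dusp8 (1.45) and the imprinted potassium channel gene Kcnq1 (2.595) rose from U and Phlda2, a maternally expressed growth-restraining gene, fell (−1.08). In LCL D Osbpl5 rose (1.47), and in CLC D Dusp8 rose (3.92). In CTCF ID, Tnni2 (1.21) and Tnfrsf23 (1.401) were above U, and no neighbour differed from I by the call. In CTCFL ID, 6 were above U, namely Lsp1 (2.05), Tnni2 (1.76), Dusp8 (2.29), Cdkn1c (1.31), Slc22a18 (1.03) and Tnfrsf23 (1.86), and 3 were above I, namely Lsp1 (1.404), Kcnq1 (2.11) and Tnfrsf23 (1.36). In LCL ID, Dusp8 (2.88), Ascl2 (2.13), Cdkn1c (2.58), Phlda2 (1.403) and Osbpl5 (2.68) were above U and the imprinted antisense RNA Kcnq1ot1 was below it (−1.48). Against I, Ascl2 (1.56) and Cdkn1c (1.02) rose and Kcnq1ot1 fell (−1.65). In CLC ID, Dusp8 (2.19), Cdkn1c (1.33) and Osbpl5 (1.84) were above U, and none was called against I. The neighbours tested numbered 20, 20, 16 and 18 in CTCF, CTCFL, LCL and CLC. In that order, 0.455%, 5.90%, 1.91% and 0.600% of all genes were called for U against D. For U against ID the shares were 14.9%, 19.6%, 12.5% and 6.47%, and for I against ID 5.06%, 7.83%, 8.49% and 1.95%. These counts, too, are not read as particular to the neighbours.

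Genes of the IGF system, a list of ligands, receptors, their substrates, binding proteins, mRNA-binding proteins and proteases, moved in both directions when CTCF was degraded. Of the 16 tested in the CTCF line, 3 rose and 4 fell, beside 10.9% of all genes called. In CTCFL 4 of 17 rose and 4 fell (9.58% of all genes), in LCL 1 of 15 rose and 3 fell (9.58%), and in CLC 2 of 14 rose and 4 fell (12.8%). The medians were −0.36, −0.24, −0.42 and −0.34 in the order CTCF, CTCFL, LCL and CLC, where those over all genes lay between 0.00 and 0.04. Igf1r, the receptor through which IGF2 signals, fell in all 4 lines, with log2 fold changes of −1.56, −1.99, −1.34 and −1.61 in the same order. Igfbp7 also fell in all 4, with −2.71, −3.10, −3.10 and −3.15. Igfbp5, a secreted IGF-binding protein, rose in all 4, by 1.61, 1.397, 1.85 and 1.89. Of the other secreted binding proteins, Igfbp3 rose in CTCF (1.15) and CTCFL (1.23), Igfbp6 in CTCF (1.63), CTCFL (1.72) and CLC (2.92), and Igfals in CTCFL (1.72), while Igfbp4 fell in CTCF (−2.20), CTCFL (−1.41) and LCL (−2.26). The ligand gene Igf1 fell in CTCF (−2.21), the insulin receptor gene Insr in CTCFL (−1.37) and CLC (−1.16), and Igf2bp3, of an mRNA-binding protein, in CLC (−1.24). Igf2r, the receptor that removes IGF2, was at a mean of 8578 in CTCF U and 6434 in CTCF I and was not called there.

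In ID, Igf1r was also below U in CTCF (−2.77), CTCFL (−2.71) and LCL (−1.35), and Igfbp7 was below U in all 4 lines (−1.55, −1.64, −2.96 and −2.18 in the order above). In CTCF and CTCFL ID, Igf1 (−1.23 and −3.57) and Insr (−1.66 and −2.15) were below U, and Igfbp3 (1.59 in both) and Igfbp6 (2.64 and 2.38) above it. Igfbp4 was below U in CTCF (−1.21), LCL (−3.48) and CLC (−2.13), and Igfbp5 above it in LCL (1.80) and CLC (1.63). Igfbp2 (−1.13) and Igf2bp3 (−1.03) were below U in CTCFL ID, and in LCL ID Igf2r was below U (−1.02) and the receptor substrate gene Irs2 above it (1.29). Against I, Igf1r (−1.21) and Igfbp5 (−1.09) were lower in CTCF ID, Igf1 was lower (−2.39) and Igfbp4 (2.03) and Igfbp7 (1.45) higher in CTCFL ID, and Igfbp4 was lower in LCL ID (−1.22). With doxycycline alone Igf1 fell in CTCF (−1.19) and CTCFL (−3.20) and Igfbp4 in LCL (−1.20). No IGF gene was called in CLC D against U or in CLC ID against I. The IGF genes tested numbered 16, 17, 15 and 14 in CTCF, CTCFL, LCL and CLC. In that order, 14.9%, 19.6%, 12.5% and 6.47% of all genes were called for U against ID. For I against ID the shares were 5.06%, 7.83%, 8.49% and 1.95%, and for U against D 0.455%, 5.90%, 1.91% and 0.600%. Whether these calls are particular to the IGF genes was not tested.

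The insulator itself held no called peak. In the ICR window, taken as the stretch 2 to 4 kb upstream of the H19 start (142580143 to 142582143), none of the 32 FLAG and 16 RAD21 libraries had a peak. The numbers that the peak caller gives its peaks ran on without a break across the window in 43 of these 48 libraries, so no peak number was missing there, and the other 5, all RAD21, had no later peak on the chromosome by which to tell. The peaks nearest to the H19 start were 17.2 kb from it on the Mrpl23 side and 31.7 kb from it on the Igf2 side, which is 19.2 and 27.7 kb from the window. Peak lists do not show signal below the threshold, and the sequencing depth of the ChIP libraries is unknown.

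Sequences in the window were compared with the CTCF core motif. The motif was taken as a 19-base matrix from 33607 CTCF D sites outside chromosomes 7 and 18, and it was searched on both strands. At the threshold of 8.29 bits, which 5% of moved windows of 50 bases on each side of their centre reached, the ICR window had 2 matches, both on the minus strand, at 142580307 to 142580325 and 142582032 to 142582050, which is 2173 and 3898 bases upstream of the H19 start. They are shown because they are the best matches in the window where CTCF is known to insulate Igf2, written 5′ to 3′ on the matching strand with the matched bases in capitals:

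ICR match 1: agacgATGCCGCGTGGTGGCAGTAcaata

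ICR match 2: gggagTTGCCGCGTGGTGGCAGCAaaatc

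They scored 9.67 and 9.65 bits. Of the 70863 windows of the same length along chromosome 7, 55.6% held at least 1 match at this threshold, 23.6% held 2 or more, and 40.3% held a score at least as high as the better of these, so the number and scores of the matches are not particular to the ICR. A match is a description of the sequence and no evidence of binding.

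FLAG peaks lay elsewhere in the locus, at 22 elements numbered E1 to E22 from the Tnnt3 side to the Th side. Most of those between Igf2 and Th carried peaks of transgenes with the CTCF zinc fingers and of no other. Of peaks present in both replicates of a group, CTCF D and CTCF ID each had 14 in the locus, LCL had 11 in D and 16 in ID, CTCFL 8 and 7, CLC 1 and 4, CLL 0 and 5, and LLC 1 and 3. Total peaks per FLAG library ran from 2239 to 75509, in CLL D and CTCF D, so counts between groups also carry that spread.

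Elements E9 to E18 lie from 94.1 to 331.7 kb beyond the H19 start, past Igf2 toward Th. E10 to E14 are within the long annotated gene model of Ins2, with E10 in an exon, and E17 and E18 are in introns of Th. Each of these 10 had peaks in 4 to 12 of the 12 libraries of CTCF and LCL, and in 0 of the 20 libraries of CTCFL, CLC, CLL and LLC. The reverse held at 3 elements, E5, E6 and E20, whose peaks were in 2, 6 and 3 of the 20 libraries with CTCFL fingers and in 0 of the 12 with CTCF fingers. The remaining 9 elements had peaks in both kinds. E5 was a site in both replicates of LLC ID alone, with a peak strength (−log10 q) of 5.13 and 2.69. E12 was one in CTCF ID alone, at 7.58 and 2.96. Every element was a site in both replicates of at least 1 FLAG group, so peaks with 1 kind of finger were a condition of being listed. E9 to E18 were sites in CTCF or LCL groups alone, and E6 and E20 in CTCFL groups alone. How much of the split comes from this choice of elements was not tested. The split is a description, since libraries of 1 line share a clone and peak numbers differ between lines. Some lists with CTCFL fingers were short, down to 2239 peaks, and the share of genome sites that split in this way was not determined.

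Overlap with the CTCF sites differed in the same way between LCL and the transgenes with CTCFL fingers. In ID cells, LCL sites overlapped 13 of the 14 CTCF sites of the locus beside 78.9% of the 30335 CTCF sites of the genome, and 13 of the 16 LCL sites took part. CTCFL sites overlapped 4 of 14, beside 55.4% of the genome, and CLC sites also 4 of 14, beside 47.8%. CLL and LLC reached 3 and 1 of 14, beside 33.6% and 7.32%. Of the sites these transgenes had in the locus, 4 of 7 for CTCFL and 4 of 4 for CLC overlapped CTCF sites, beside 67% and 81.1% of their sites in the genome. For LCL the 13 of 16 stand beside 69.4%.

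**Figure D2:**
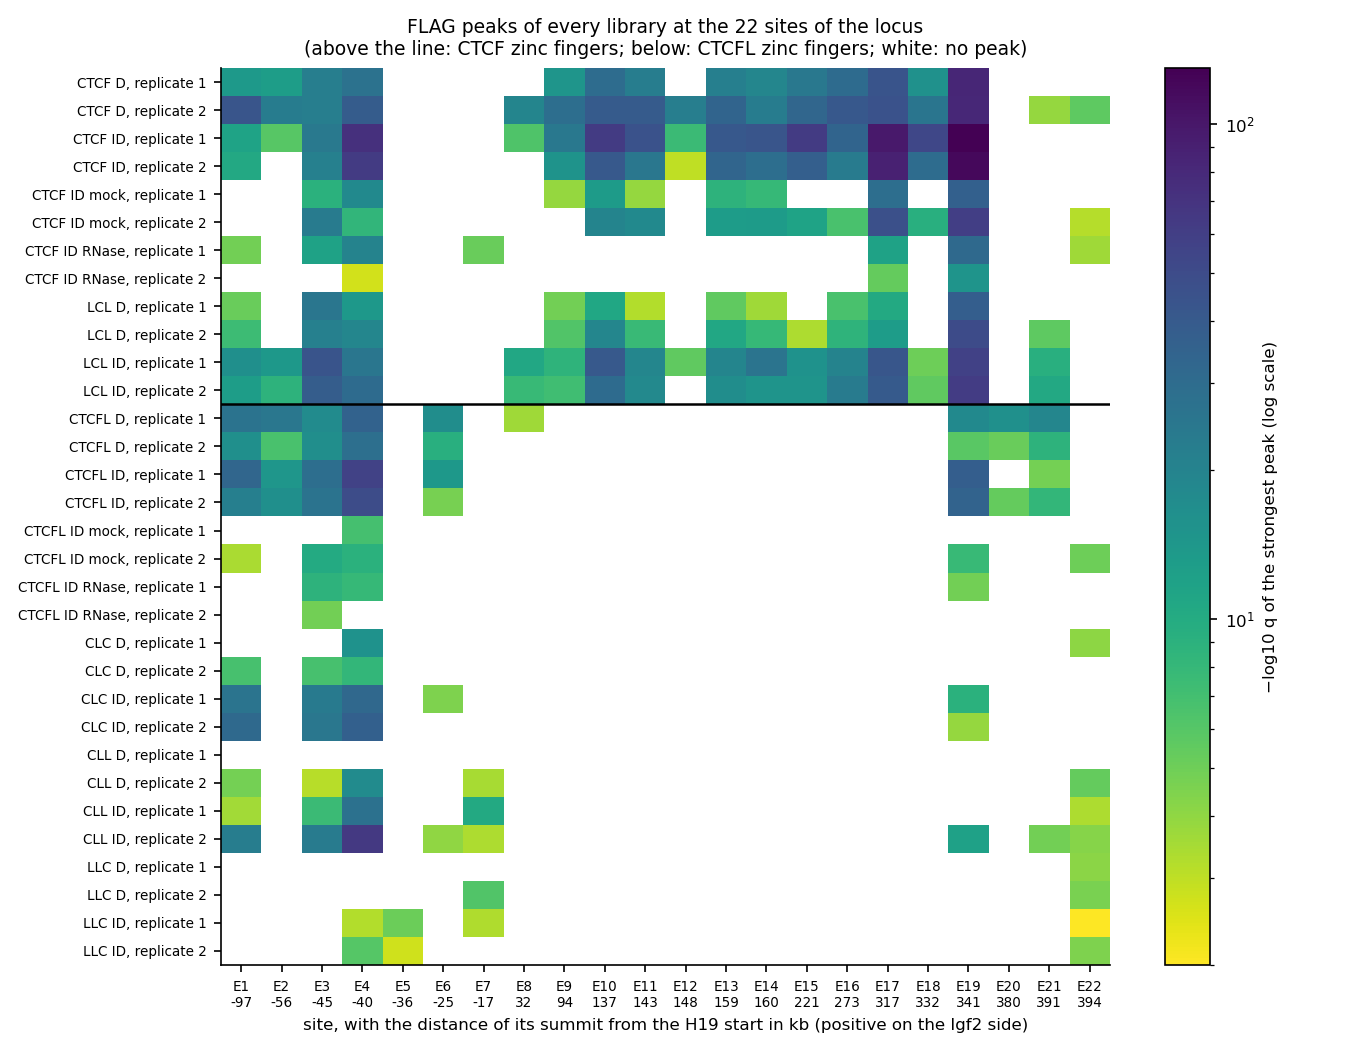
FLAG peak strength (−log10 q on a log colour scale) at the 22 elements of the locus (columns, with the distance from the H19 start in kb) in each of the 32 FLAG libraries (rows), with white cells where no peak was called and a line between CTCF and CTCFL zinc fingers. E9 to E18 are coloured in rows of CTCF and LCL and white in all rows of CTCFL, CLC, CLL and LLC.

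E19, in an intron of Th 341.3 kb from the H19 start, had the strongest peaks of the locus in CTCF ID. Its −log10 q, the peak caller's measure of certainty, was 129 and 120 in CTCF ID, 57.6 and 61.7 in LCL ID, 37.6 and 34.4 in CTCFL ID, and 9.06 and 3.87 in CLC ID. It had peaks in 12 of 12 libraries with CTCF fingers and in 9 of 20 with CTCFL fingers. Its neighbour E17, in another Th intron, had 98.3 and 88.5 in CTCF ID and 42.7 and 39.99 in LCL ID, and none in any library with CTCFL fingers.

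E4, in an intron of Mrpl23, was the most widely occupied, with peaks in 12 of 12 and 16 of 20 libraries. Its −log10 q was 72.9 and 63.4 in CTCF ID, 57.1 and 49.3 in CTCFL ID, 25.1 and 30.2 in LCL ID, and 31.7 and 36.2 in CLC ID. E3, over the start and the first exon of Mrpl23, had peaks in 11 of 12 and 13 of 20 libraries. There the values were 24.1 and 21.01 in CTCF ID, 28.9 and 26.5 in CTCFL ID, 43.98 and 38.2 in LCL ID, and 23.8 and 24.8 in CLC ID. Peaks of the CLC transgene were present at E3 and E4 in both CLC ID replicates. Mrpl23 RNA was at 19.6 and 33.7 in the RNA-seq libraries of that group and at 104 and 90.2 in the untreated CLC libraries. A link between these peaks and the RNA was not tested.

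A match to the CTCF motif lay within 50 bases of the summit in 6 of the 22 elements (E2, E4, E13, E17, E19 and E21), where 44.3% of CTCF D sites and 5% of windows moved by 1 kb had one. The 4 with the best scores carried the strongest peaks described here or the Ins2 element E13, and they are written with the matched bases in capitals and the flanks in lower case, 5′ to 3′ on the matching strand, E4, E13 and E17 on plus and E19 on minus:

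E4: acagcAGGCCGCTAGATGGCAGTCtcgtg

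E13: tgaatCAACCACCAGAGGGAGACAaagac

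E17: cagaaTTACCAGCAGGTGGCATCAaaccc

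E19: acagtTGGCCACATGGGGGCACTTgtggg

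They scored 16.45, 15.67, 18.72 and 17.00 bits and lie at 142538099 to 142538117, 142737123 to 142737141, 142894854 to 142894872 and 142919448 to 142919466. E17, with peaks of CTCF fingers alone, and E19, with peaks of both kinds, thus both hold the motif.

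E3 had no match within 50 bases of its median summit, where the best score was 7.15 bits. Bases farther out in its central stretch of 300 were not searched. This stretch (chr7:142532962-142533261, GRCm38, plus strand) is shown because it holds the start of Mrpl23, whose RNA fell with IAA in every line. CTCF and CTCFL fingers alike also gave peaks on it, and its part in the fall was not tested. The bases within 50 of the median summit of 24 libraries are in capitals:

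E3: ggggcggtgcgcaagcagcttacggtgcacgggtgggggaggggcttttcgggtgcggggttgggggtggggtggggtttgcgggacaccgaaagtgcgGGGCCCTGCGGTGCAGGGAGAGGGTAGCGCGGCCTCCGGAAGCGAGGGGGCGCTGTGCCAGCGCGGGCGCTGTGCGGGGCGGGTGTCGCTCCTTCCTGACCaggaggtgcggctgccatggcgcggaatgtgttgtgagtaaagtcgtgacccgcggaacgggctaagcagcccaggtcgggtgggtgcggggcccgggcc

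The RefSeq start of Mrpl23 lies at 142533032, inside this stretch.

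In CTCF ID, fewer sites of the locus were called after RNase treatment before ChIP than after mock treatment. There were 8 with mock and 3 with RNase, E4, E17 and E19. In CTCFL ID there was 1 site in each, E4 with mock and E3 with RNase, and the first replicate had 1 peak in the locus with mock and 3 with RNase. The genome-wide counts fell as well, from 20585 to 8145 sites in CTCF and from 7130 to 2322 in CTCFL. The locus thus held 0.0389% of CTCF sites with mock and 0.0368% with RNase, and 0.014% and 0.0431% of CTCFL sites. A site needs a peak in both replicates, and the second RNase list was short in both lines. RNase lists held 26063 and 8744 peaks in CTCF and 9394 and 2559 in CTCFL. Mock lists held 24768 and 26426 in CTCF and 9248 and 14853 in CTCFL. In the locus, the CTCF replicates had 8 and 3 peaks with RNase and 9 and 13 with mock. The fall in sites cannot be told apart from the shortness of those lists. At E19 the −log10 q was 36.2 and 60.0 with mock and 31.3 and 14.9 with RNase in the CTCF line.

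RAD21 gave a site in both replicates at 1 element of the locus, E19 in CTCF D, with −log10 q of 5.07 and 1.73. No other of the 8 RAD21 groups had a site in both. The RAD21 lists ran from 168 to 22773 peaks per library, and in CTCFL D 7 peaks of the locus were in the first replicate, with 20475 peaks in all, and 0 in the second, with 239. Differences between RAD21 groups were therefore not read.

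The domain lists from Hi-C were 1 per condition and caller with no replicates. Those of the HiCratio caller placed the start of H19 and Igf2 and that of Th in separate domains except when CTCF was degraded without a transgene. On bins of 40 kb, H19 and Igf2 lay in a domain from 142320000 to 142720000, 400 kb long, and Th in one from 142760000, in CTCF U, D and ID, CTCFL U and D, LCL D and ID, and CLC D and ID. In CTCFL ID the first domain began at 142280000 and was 440 kb long. In CTCF I all these genes fell in 1 domain of 1200 kb (142320000 to 143520000), and in CTCFL I in 1 of 1840 kb (141640000 to 143480000). The samples hold no Hi-C of untreated or IAA-treated LCL and CLC cells. The domains of LCL ID and CLC ID thus could not be set against CTCF loss alone in the same line. The CLL ID cells that the labels list for Hi-C were not analysed here.

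The gap of 40 kb between the domains, from 142720000 to 142760000, was listed in 10 of the 12 conditions and holds 4 of the elements, E11 to E14. These elements had peaks of CTCF and LCL but of no transgene with CTCFL fingers, while the gap was listed also in CTCFL ID and CLC ID. By the other caller, that of Crane, H19 and Igf2 lay in a domain of 240 kb in U and D cells and in CTCF ID, and in no domain in CTCF I and CTCFL I. In CTCFL ID, LCL ID and CLC ID this domain was shorter, at 200, 160 and 160 kb, and ended at 142600000, so that it held the H19 but not the Igf2 start. The Crane lists gave Th no domain in U and D cells and in CTCF ID, a domain of 560 kb from 142840000 in CTCF I and CTCFL I, and one of 520 kb from 142880000 in CTCFL ID, LCL ID and CLC ID.

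**Figure D3:**
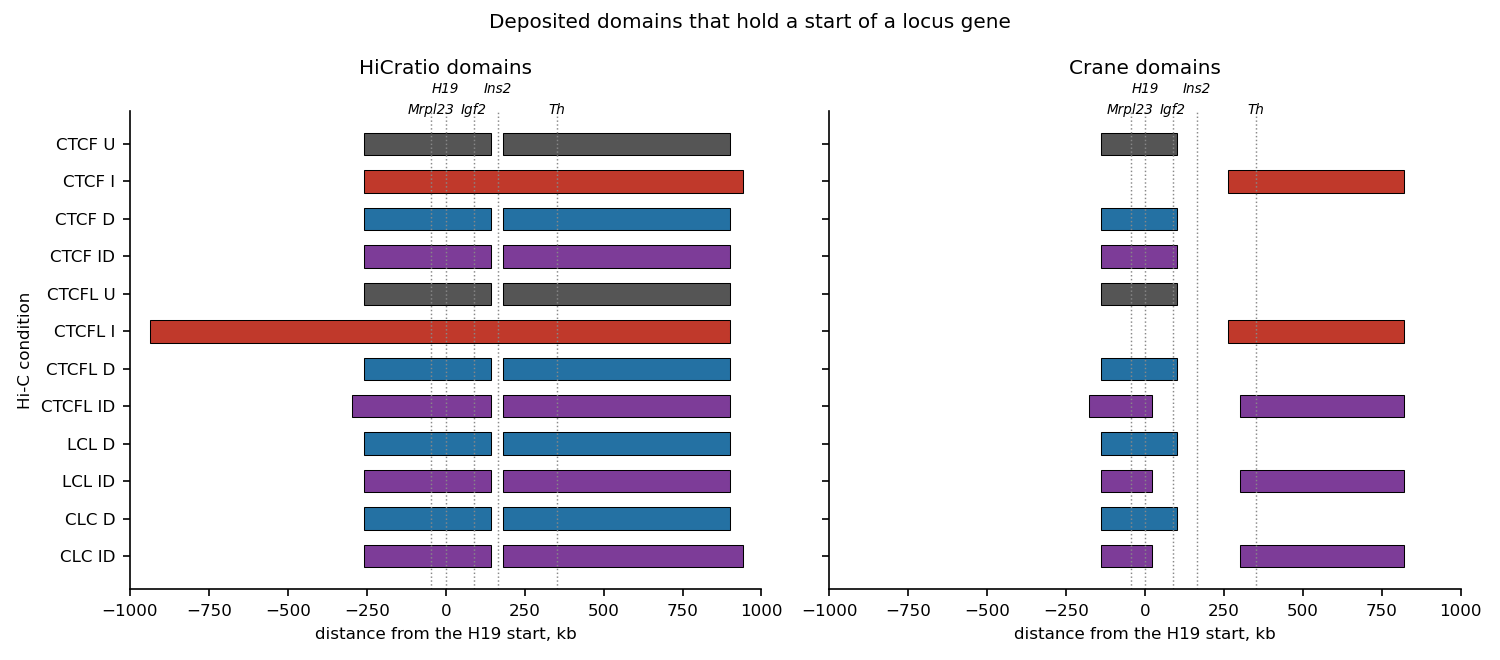
Domains that hold the start of a locus gene by each caller (panels), drawn as bars along the distance from the H19 start in kb, for each Hi-C condition (rows), with dotted lines at gene starts. In CTCF I and CTCFL I the HiCratio bar is a single one across the locus, of 1200 and 1840 kb, and the Crane caller lists no domain at H19.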

How the data were processed

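RNA-seq was deposited as 1 table of normalized counts (a signal: read counts per gene that the authors divided by DESeq2 size factors) after STAR alignment to GRCm38. FLAG and RAD21 ChIP-seq was deposited as MACS peak lists, with the fold enrichment (a ratio) and −log10 q that the authors' caller gave at q 0.05, in broad mode for RAD21. Hi-C was deposited as domain lists. The submitters' processing notes also name Trim Galore 0.4.4, Bowtie2, SAMtools 1.3, HTSeq and deepTools. Whether a control library was used for peak calling is not given in the sources used here.

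Groups came from the sample labels, and whether replicates were separate cultures is not stated, so p-values measure only the spread between these libraries. The values are normalized, so log2(value + 1) of genes with a mean of at least 10 in a line was fitted with limma 3.58.1 (R 4.3.3, trended variance, all conditions of a line in 1 fit), and differences between lines were fitted over all 38 libraries, 9 contrasts in all. Reads were recovered from the value steps in 36 libraries, where all low values were whole multiples within 0.1 step. These reads went into edgeR 4.0.16 and DESeq2 1.42.0 as alternatives. The limma script was tested on simulated data. With 2 against 2 libraries an exact permutation test cannot go below 0.333, and with 3 against 3 below 0.1.

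Overlapping ChIP peaks (by at least 1 bp) were merged, and a region counted as a site where both replicates had a peak in it. Gene coordinates came from the GRCm38 annotation and sequences from the GRCm38 reference genome, and the Mrpl23 start from RefSeq. All 7 genes, the neighbours and IGF genes that were called, and the 5 genes most alike to H19 and Igf2 were named. Genes, lists and tests were chosen with earlier results of these data known. Other tables of comparisons were not used. Every value column belonged to a sample.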

Additional observations from a re-analysis of the deposited data

Results flagged for a closer look

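The change of a member differed from that in the CTCF line in 11 tests, each by an interaction contrast in limma over all 38 libraries. Of these, 7 concerned Igf2, 3 Igf2os and 1 Mrpl23. For Igf2, the log2 difference of the change from U to D was 1.16 in CTCFL, 1.81 in LCL and 1.03 in CLC, that from I to ID was 1.72, 3.79 and 1.50 in the same order, and that from U to I was −1.90 in LCL. For Igf2os, the difference was 4.03 from U to D in LCL, and from I to ID 7.06 in LCL and 2.79 in CLC. The LCL values for Igf2os are fitted against libraries at 0 to 1.75 normalized counts and depend on the added count of 1. For Mrpl23, the change from I to ID differed by 2.38 in LCL. All 9 contrasts use the CTCF libraries, so the differences are not independent, and a line is 1 clone, so transgene and clone cannot be told apart.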

How the results depend on the processing

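No called change or difference reversed direction in any alternative. Some changes that were not called did, such as H19 in CTCFL from U to D, with log2 fold changes from −0.24 to 0.24. Igf2 kept its call under all 14 alternatives for CTCF U against I (1.02 to 1.12) and all 13 for LCL I against ID (2.38 to 2.64). Fitting 2 groups alone left 0 members called in CTCF U against D, as did the replicate block, while 1 fit of all 4 lines gave 2 in CTCF U against I, 0 in CTCF U against D, 0 in CTCF U against ID, 2 in CTCFL U against I and 2 in LCL U against D. The replicate numbers did not pair the samples (same-number correlations over 0.1 in 3 of 15 pairs in CTCF and 0 in the other lines), and the replicate block changed no other count of members. Without a filter, or with a mean of at least 50, CTCFL U against D had 0 called, and with the latter LCL U against ID had 1. On recovered reads edgeR and DESeq2 had 1 library in CTCFL ID, replicate 1, and gave Mrpl23 log2 fold changes of 1.00 each from U. Leaving out 1 library gave 3 to 5 members in CTCF U against I, 1 to 2 in CTCFL U against I and CLC U against I, 0 to 1 in CTCF and CTCFL U against D, and in CTCF, CTCFL and CLC U against ID, 1 to 2 in LCL U against ID and 2 to 3 in LCL I against ID. The count of differences between lines was 11, or 12 with a pseudocount of 5, which added Igf2os in CTCFL from I to ID (1.85, adjusted p = 0.0066) and lowered that of Igf2os in LCL from U to D from 4.03 to 2.53.

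At −log10 q of at least 5, FLAG sites in the locus were 2 in CLL ID and 0 in CTCFL ID RNase, LLC D and LLC ID, and RAD21 sites were 0 in CTCF D. Without the margin, FLAG sites were 3 in CLL ID, 5 in CTCFL D and 0 in LLC D. Each replicate alone gave 2 to 3 in CLC D, 0 to 5 in CLL D, 5 to 9 in CLL ID, 3 to 8 in CTCF ID RNase, 9 to 13 in CTCF ID mock, 8 to 11 in CTCFL ID, 1 to 3 in CTCFL ID RNase, 1 to 5 in CTCFL ID mock and 1 to 3 in LLC D, and for RAD21 0 to 3 in CLC D, 1 to 10 in CTCF D, 0 to 1 in CTCF ID, 0 to 7 in CTCFL D, 0 to 2 in CTCFL ID and 2 to 3 in LCL D. The CTCF motif was matched in 11 of the 22 elements within 100 bp and in 11 within 200 bp, the latter window added after seeing the data. At these windows 64.1% and 68.1% of CTCF D sites had a match. The Crane caller gave 240 kb in U, D and CTCF ID, 0 in CTCF I and CTCFL I, 200 kb in CTCFL ID and 160 kb in LCL ID and CLC ID for the H19 domain. The cause of these differences was not tested. ChIP depth is unknown, and 2 libraries a group limit the tests of LCL and CLC.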
